A study of Mus musculus with 4 samples.

Results

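The MHC class II presentation genes were followed in single-cell libraries of mouse bone. They were chosen by symbol: H2-Aa, H2-Ab1, H2-Eb1, H2-DMa, H2-DMb1, H2-DMb2, H2-Oa, H2-Ob, Cd74 and Ciita, 10 of the 31053 genes in the matrices. Levels were read in the 32217 barcodes that held 1000 to 40000 unique molecular identifiers (UMIs, each standing for 1 captured RNA molecule) with at most 10% of them from mitochondrial genes. Cell types were set by marker gates, in which a cell had to hold UMIs of 3 to 5 or more genes of a marker list, and no gate used any of the 10 genes.

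MHC class II molecules are pairs of an alpha and a beta chain that carry peptides from endocytosed proteins to the cell surface, where CD4+ T cells read them. The invariant chain (Cd74) escorts the newly made pair and blocks its groove. In the endosome, the DM heterodimer (H2-DMa with H2-DMb1 or H2-DMb2) exchanges the remnant of the invariant chain for peptide, and the DO heterodimer (H2-Oa with H2-Ob) restrains DM, chiefly in B cells. The co-activator Ciita switches on much of this set, which in bone and marrow is known from B cells, dendritic cells and subsets of monocytes and macrophages.

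The study set bone of mice after hindlimb unloading (HLU, tail suspension for 28 days) against bone of control mice (Ctrl), with 2 libraries per group and 1 mouse per library. All mice were wild-type C57BL/6J. The methods and the series text state different ages, so no age is given here. Tibiae and femurs were flushed of marrow before the bone was digested with enzymes, and the cells were captured with the 10x Genomics 3′ chemistry (v3.1). With 2 libraries per group, the smallest p that an exact permutation test can give is 0.333.

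The 4 libraries kept 7340 to 9485 cells with 45347595 to 87604282 UMIs, and each pair of libraries shared 13 to 21 barcodes. The gates held very different cells in the conditions: skeletal cells numbered 4035 and 3262 in the Ctrl libraries against 59 and 120 in the HLU libraries. HLU replicate 2 stood apart with 1203 monocytes, 464 erythroid cells and no precursor B cell. The other libraries held 180 to 401 monocytes, 8 to 60 erythroid cells and 28 to 86 precursor B cells. Of the kept cells, 4043 passed no gate and 3649 passed more than 1.

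The leading genes of the gates are given as a description. Cd79a, Ccl22, Il4i1, Ccr7, Ly6d, Ccr9, Siglech and Ms4a6c are markers of the gates they led, so they are no independent check. H2-Aa, H2-Eb1 and Cd74 are themselves among the class II genes followed here. The other leading genes named lie outside the list of their gate. The 1330 cells of the B cell gate were led by immunoglobulin light chains and Cd79a, with Cd74 among their leading genes. The 132 cells of the mature dendritic cell gate were led by H2-Aa, Ccl22, H2-Eb1, Il4i1 and Ccr7, and the 74 of the plasmacytoid dendritic cell gate by Ly6d, Ccr9, Cd7 and Siglech. The 2059 monocytes were led by Ms4a6c, Marco and Vcan, and the 67 macrophages by Rsad2, Lpl, Cd36 and Spic. The conventional dendritic cell gate took 5 cells, led by Acp5, Gpnmb and Ctsk, with its markers Zbtb46, Xcr1, Clec9a and Cd209a at 0 UMIs. It was therefore left unnamed and unused. Of the 74 cells of the plasmacytoid dendritic cell gate, 28 passed no other gate, as did 60 of the mature dendritic cells, 1084 of the B cells, 1399 of the monocytes and 17 of the 143 precursor B cells.

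In the annotation of the mm10 build (GENCODE M21), 8 of the 10 genes lay within 224 kb of chromosome 17, between positions 34092340 and 34316674. Their order was H2-Oa, H2-DMa, H2-DMb2, H2-DMb1, H2-Ob, H2-Ab1, H2-Aa and H2-Eb1. Ciita lay at chr16:10480059-10528418, and Cd74 on a further chromosome. H2-Eb1, H2-DMa, H2-Oa and Ciita each overlapped a gene on the opposite strand (Gm20513, Brd2, BC051537 and Dexi, respectively). The strand setting of the counting is not given in the sources used here, so reads from such a pair may not be told apart. H2-DMb1 and H2-DMb2 are close paralogs, identical at 93.7% of 1220 aligned transcript bases. In the last 500 bases of each transcript, 51 of 410 windows of 91 bases (12.4%) of H2-DMb1 were found exactly in H2-DMb2 and 0 of 410 of H2-DMb2 in H2-DMb1, so the split of counts between them is uncertain to that degree.

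Class II promoters are known for an X box and a Y box upstream of the start, where the complex that recruits Ciita assembles. RefSeq promoter windows (250 bases before to 50 after the start, build GRCm38.p6) were at hand for 7 of the genes. Both strands were searched for ATGATG, part of many X boxes, and for TGATTGG, the Y box. The letters of the motifs can overlap. TGATTGG was found upstream of 6 of the 7 genes, from 45 to 92 bases before the start, and in 7.23% of all 32851 windows of this length. An ATGATG before a TGATTGG, with starts at most 50 bases apart, was found at H2-DMb2, H2-DMb1, H2-Ob and H2-Eb1, and in 20 of all windows (0.0609%). The stretches below, 60 bases each and 5′ to 3′ on the strand of the gene, show the spacing of both motifs at a DM gene, a DO gene and a classical chain gene, and the Y box match alone at H2-Aa. Capitals mark the matches, which are a description of the letters and not of binding.
H2-DMb2, chr17:34145112-34145171, plus strand: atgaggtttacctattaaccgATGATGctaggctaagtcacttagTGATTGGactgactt
H2-Ob, chr17:34238801-34238860, plus strand: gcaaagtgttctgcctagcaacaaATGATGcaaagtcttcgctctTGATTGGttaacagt
H2-Eb1, chr17:34305761-34305820, plus strand: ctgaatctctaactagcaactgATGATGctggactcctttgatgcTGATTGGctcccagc
H2-Aa, chr17:34287859-34287918, minus strand: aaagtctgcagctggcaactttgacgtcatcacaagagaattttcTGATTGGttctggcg
From the first base of ATGATG to the first base of TGATTGG there were 24 bases at H2-DMb2, 21 at H2-Ob and 23 at H2-Eb1. H2-Aa carried the Y box match without ATGATG in this window.

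Cd74 gave the most UMIs of the 10 genes, 55805 in all kept cells, followed by the classical chains H2-Ab1 (14397), H2-Aa (11474) and H2-Eb1 (9115). The DM genes gave 3113 (H2-DMa), 2164 (H2-DMb1) and 574 UMIs (H2-DMb2). H2-Ob gave 1084, Ciita 517 and H2-Oa 447. A UMI marks the 3′ end of a molecule, so these counts are not scaled by gene length.

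The B cell, mature dendritic and plasmacytoid dendritic gates together held most of the UMIs of 6 of the genes: 75.8% of the UMIs of Ciita, 71.8% of H2-Aa, 71.7% of H2-Eb1, 71.1% of Cd74, 67.4% of H2-DMb2 and 64.5% of H2-Ob. For the other 4 genes the share was lower, from 41.6% for H2-Ab1 and 33.3% for H2-Oa to 26.8% for H2-DMa and 14.2% for H2-DMb1. These shares are pooled over libraries that differed in their cells. Skeletal cells held 71.1% and 61.5% of the H2-DMb1 UMIs of Ctrl replicates 1 and 2 but 2.82% and 1.60% of those of HLU replicates 1 and 2 (36.4% pooled). For H2-Ab1 they held 50.3%, 40.4%, 0.329% and 0.314% (20.5% pooled), and for Cd74 at most 8.72%. Monocytes held 27.2% of the pooled UMIs of H2-DMa and 21.4% of H2-DMb1.

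**Figure D1:**
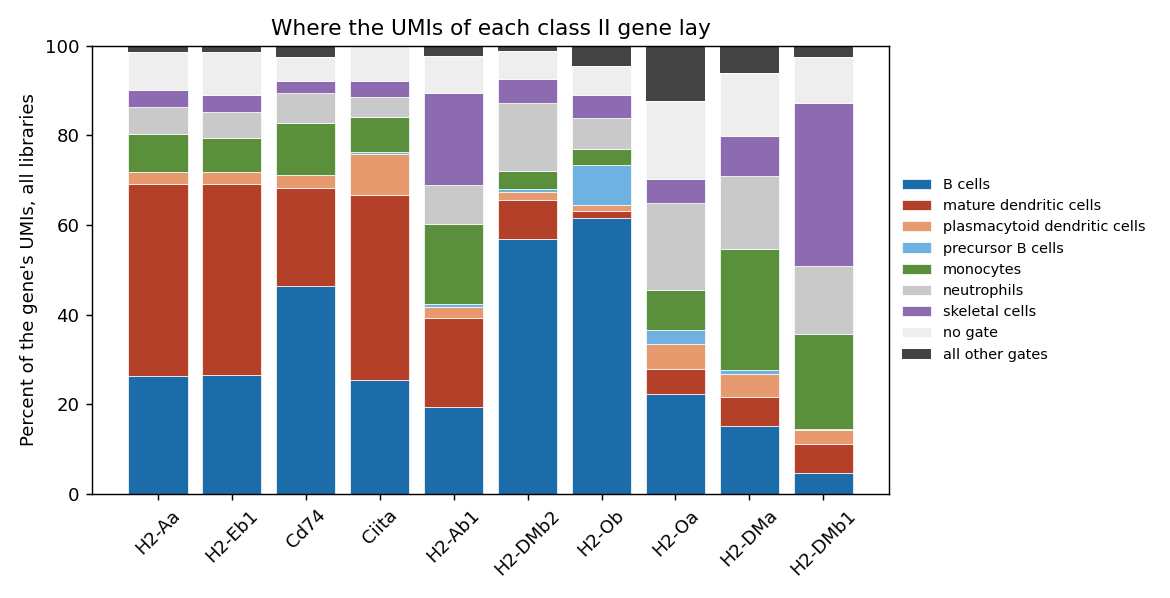
Stacked bars give, for each class II gene, the percent of its UMIs over all 4 libraries that lay in each marker gate. The mature dendritic and B cell blocks together make up most of the bars of H2-Aa, H2-Eb1, Cd74 and Ciita, while skeletal cells take 36.4% of H2-DMb1, nearly all of it from the Ctrl libraries (71.1% and 61.5% of their H2-DMb1 UMIs, against 2.82% and 1.60% in HLU).

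The levels below are UMIs per 1000000 UMIs of the cells of a gate in 1 library (CPM). H2-Aa, a classical alpha chain, stood at 7887 and 5890 CPM in the mature dendritic cells of Ctrl replicates 1 and 2 and at 6505 and 2075 CPM in those of HLU replicates 1 and 2. In the B cell gate it stood at 813, 618, 475 and 473 CPM in the same order, and in monocytes at 114, 58.3, 48.1 and 12.4 CPM. In every library the mature dendritic cells were above the B cells and the B cells above the monocytes. Neutrophils, which carry little class II and serve as the background here, held 5.62 to 12.2 CPM.

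H2-Eb1, a classical beta chain, followed the same order, with 1999 to 5741 CPM in mature dendritic cells, 347 to 655 in B cells and 10.6 to 73.0 in monocytes. H2-Ab1, the beta chain that pairs with H2-Aa, had a smaller spread among the gates. It stood at 1842 to 3473 CPM in mature dendritic cells, 374 to 698 in B cells and 65.3 to 134 in monocytes. Cd74 was the most abundant gene in each of these gates: 6990 to 16406 CPM in mature dendritic cells, 3943 to 5282 in B cells and 94.2 to 436 in monocytes. For all 4 genes the lowest mature dendritic value, that of HLU replicate 2, was still above every B cell value.

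**Figure D2:**
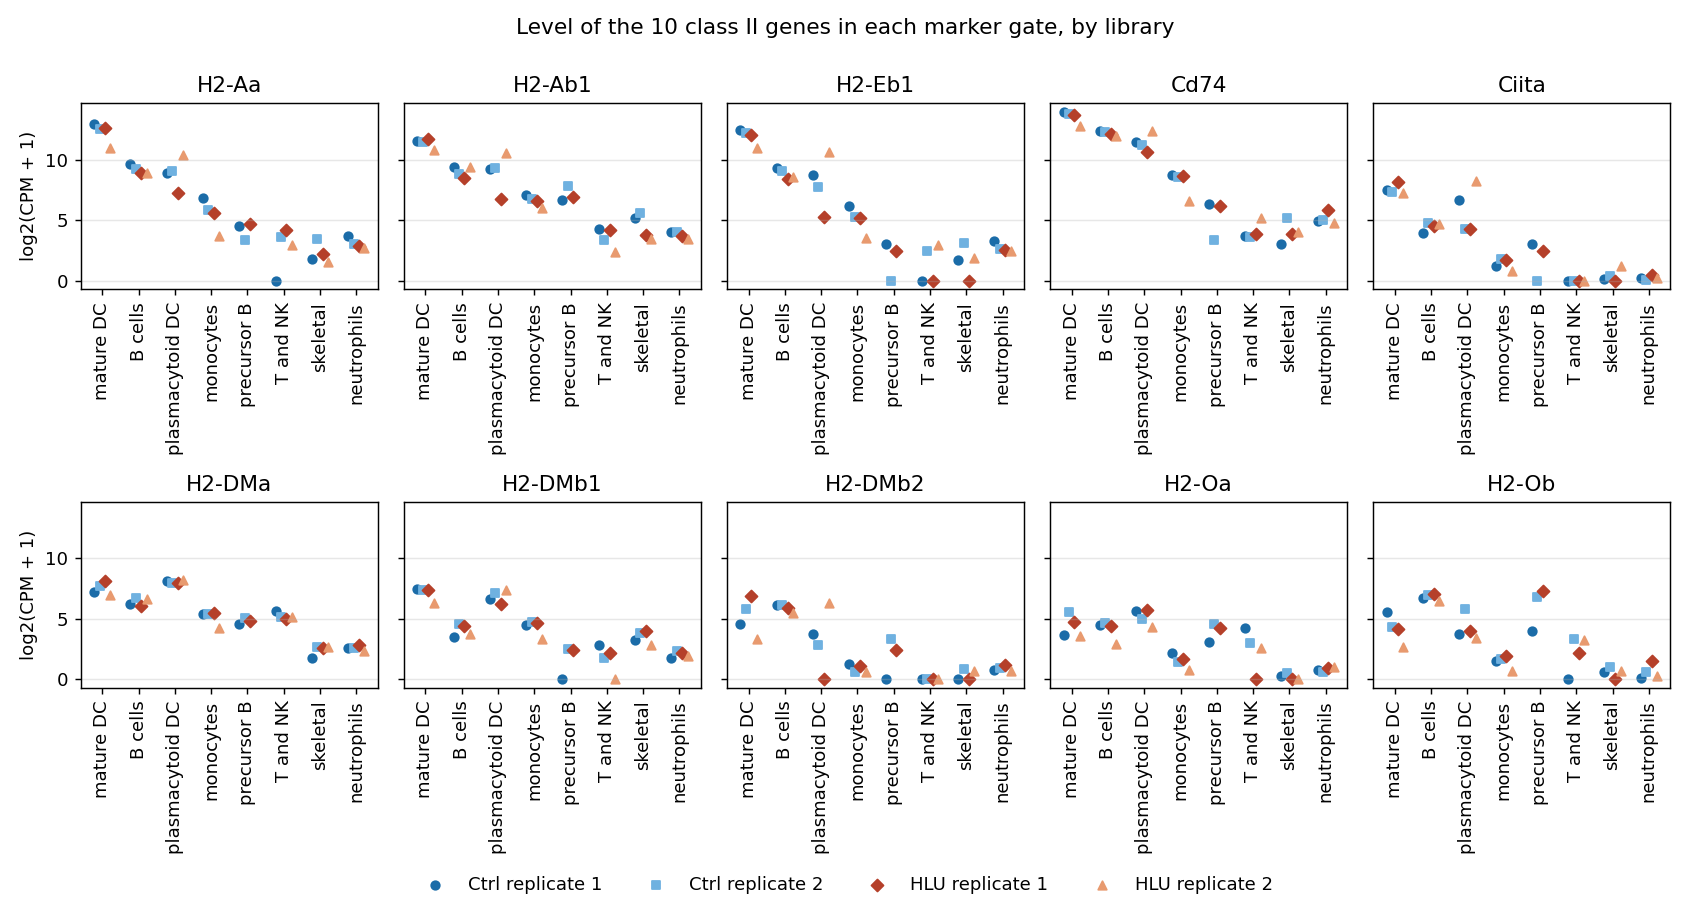
Each panel gives 1 gene, with log2(CPM + 1) on the vertical axis and the marker gates on the horizontal axis. Each point is the summed count of 1 library, blue for Ctrl and red or orange for HLU. In every library the classical chains, Cd74 and Ciita are higher in mature dendritic cells than in B cells, and higher in B cells than in monocytes. The other gates do not follow a single order. H2-Ob is higher in B cells than in mature dendritic cells in every library.

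The gates were compared in 1 edgeR quasi-likelihood fit over 10718 genes and the 30 sums of a gate in a library with at least 10 cells, with library and gate in the model. The 9 mature dendritic cells of Ctrl replicate 1 were too few to enter. Between mature dendritic cells and B cells, 8 of the 10 genes passed an adjusted p (Benjamini-Hochberg over all genes) of 0.05. Of these, 7 were higher in mature dendritic cells, a call that 15.2% of all genes received. The log2 differences were 3.26 ± 0.57 (SE, as throughout for log2 values) for H2-Aa, 3.25 ± 0.66 for H2-Eb1 and 2.57 ± 0.49 for H2-Ab1, with adjusted p of 7.3e-05, 0.0004 and 0.00022. Ciita (3.20 ± 0.54), H2-DMb1 (3.04 ± 0.32) and H2-DMa (1.30 ± 0.28) were higher as well. Cd74 was higher by 1.39 ± 0.51 (adjusted p 0.039), a call that was lost when any 1 of Ctrl replicate 1, Ctrl replicate 2 or HLU replicate 1 was left out. The call of H2-DMa was lost without HLU replicate 1.

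From monocytes to B cells, 9 of the 10 genes were higher in B cells, where 21.2% of all genes were called higher. The log2 difference was 3.58 ± 0.51 for Cd74, 3.38 ± 0.64 for H2-Eb1, 3.20 ± 0.54 for H2-Aa and 2.17 ± 0.46 for H2-Ab1. H2-DMb1 was the exception, at -0.47 ± 0.29 (adjusted p 0.19). From monocytes to mature dendritic cells all 10 genes were higher (10.5% of all genes), by up to 6.89 ± 0.63 for Ciita, 6.63 ± 0.75 for H2-Eb1 and 6.45 ± 0.65 for H2-Aa. Monocytes in turn exceeded neutrophils in 7 of the genes (25.7% of all genes were called higher), with log2 differences of 2.59 ± 0.49 for Cd74, 2.32 ± 0.46 for H2-Ab1, 2.21 ± 0.25 for H2-DMa and 2.19 ± 0.53 for H2-Aa. H2-Oa, H2-Ob and H2-DMb2 were not called there, and the calls of Ciita and H2-Eb1 were lost without Ctrl replicate 1, that of Ciita also without Ctrl replicate 2. Between mature dendritic cells and monocytes, H2-Ob (2.72 ± 0.81) lost its call without Ctrl replicate 2 or HLU replicate 2. With DESeq2's size factors, the genes higher in mature dendritic cells than in monocytes made up 57.5% of all calls in place of 42.8%.

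Ciita, the co-activator, was sparse but followed the classical chains. It stood at 184, 160, 294 and 157 CPM in the mature dendritic cells of Ctrl replicates 1 and 2 and HLU replicates 1 and 2. In B cells it stood at 14.9, 27.5, 21.7 and 25.1 CPM, and in monocytes at 0.768 to 2.57 CPM. The 3 gates did not overlap in any library. The 585 T and NK cells held 0 UMIs of Ciita in all libraries, which at 3 counts allows up to 2.53 CPM in the deepest of them and up to 18.3 CPM in the shallowest. In the plasmacytoid dendritic cells it ranged from 18.6 to 299 CPM.

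The DM genes were less restricted. H2-DMa, the alpha chain of DM, stood at 275, 253, 253 and 299 CPM in plasmacytoid dendritic cells, at 122 to 286 in mature dendritic cells and at 65.8 to 106 in B cells. It also reached 66.2 to 135 CPM in megakaryocytes (5 to 22 cells a library), 30.8 to 48.7 in T and NK cells and 17.7 to 44.9 in monocytes, against 3.98 to 6.25 in neutrophils. The highest megakaryocyte value was that of Ctrl replicate 1, where the DM genes together gave 4 UMIs in 5 cells. Of all 44 megakaryocytes, 29 passed no other gate. In T and NK cells H2-DMa was higher than in neutrophils by 2.05 ± 0.32 (adjusted p 5.1e-06 in edgeR), a comparison in which 22.7% of all genes were called higher and 28.4% lower. Cd74, in contrast, was lower in T and NK cells than in neutrophils, with a log2 difference of -1.43 ± 0.58 (adjusted p 0.043), a call lost without Ctrl replicate 1, Ctrl replicate 2 or HLU replicate 1. Of the 5 members called in this comparison, 3 were called when any 1 library was left out.

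The 2 genes for the DM beta chain divided along cell types. H2-DMb1 stood at 172, 163, 164 and 76.6 CPM in mature dendritic cells and at 74.4 to 164 in plasmacytoid dendritic cells. In B cells it stood at 10.7, 22.3, 19.8 and 12.9 CPM, in the range of monocytes (9.36 to 25.4). Skeletal cells held 5.99 to 15.2 CPM. H2-DMb2, in contrast, stood at 70.4, 68.7, 58.6 and 42.9 CPM in B cells and at 0.528 to 1.38 in monocytes. B cells exceeded monocytes in H2-DMb2 by 5.91 ± 0.67 (adjusted p 1.5e-07), while H2-DMb1 was not called between these gates.

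Within single gates, H2-DMb2 made up 86.8%, 75.5%, 74.8% and 76.9% of the UMIs of both beta chain genes in the B cells of Ctrl replicates 1 and 2 and HLU replicates 1 and 2. In mature dendritic cells it made up 11.8%, 25.9%, 41.8% and 10.6%, on 2, 15, 28 and 5 UMIs of H2-DMb2. In monocytes the share was 2.20% to 6.12% and in neutrophils 17.5% to 25.9%. The B cell values were thus above those of these 3 gates in all 4 libraries. Both terms of this share come from the same cells, and the exact matches between the paralogs given above bear on it.

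**Figure D3:**
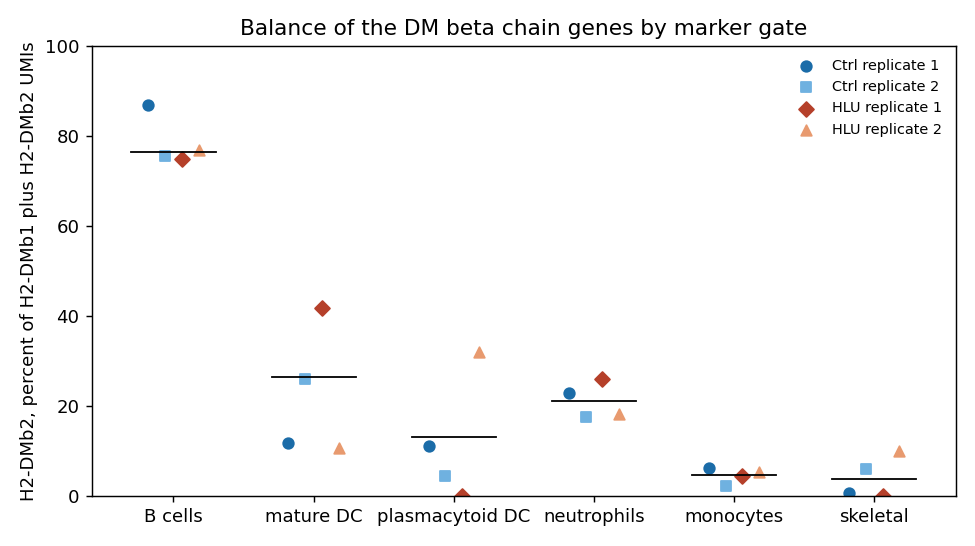
Points give, per library, the percent that H2-DMb2 makes up of the summed UMIs of H2-DMb1 and H2-DMb2 in each marker gate. The 4 B cell points lie between 74.8% and 86.8%, above all points of the other gates shown, of which the highest is 41.8% in the mature dendritic cells of HLU replicate 1.

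H2-Ob, the beta chain of DO, had the opposite order to the classical chains: 107, 129, 132 and 86.6 CPM in B cells against 45.9, 19.0, 16.8 and 5.47 CPM in mature dendritic cells. The mature dendritic values rested on 4, 5, 4 and 3 UMIs. The log2 difference between mature dendritic cells and B cells was -3.24 ± 0.57 (adjusted p 8.9e-05), where 13.6% of all genes were called lower. Monocytes held 0.624 to 2.82 CPM of it. H2-Oa, the alpha chain of DO, stood at 21.3, 24.0, 19.8 and 6.44 CPM in B cells and at 10.9 to 45.6 in mature dendritic cells. These ranges overlapped, and the log2 difference was 0.77 ± 0.55 (adjusted p 0.33). Per 100 UMIs of the DM genes, the DO genes gave 83.3, 77.7, 105 and 59.6 UMIs in B cells, and 7.41 to 16.7 in mature dendritic cells. The latter rested on 5, 17, 10 and 9 UMIs of the DO genes.

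Precursor B cells, found in 3 libraries, held H2-Ob and H2-Oa but little Cd74 and H2-Eb1. H2-Ob stood at 113 CPM in Ctrl replicate 2 and 157 CPM in HLU replicate 1, close to the B cells of those libraries (129 and 132), and at 15.0 CPM (2 UMIs) in the 29 cells of Ctrl replicate 1. Cd74 stood at 82.5, 9.38 and 73.9 CPM in Ctrl replicates 1 and 2 and HLU replicate 1, far under the 5282, 5018 and 4572 CPM of their B cells. H2-Eb1 stood at 7.5, 0 and 4.48 CPM. H2-Ob thus lay near the B cell level in 2 of 3 libraries, and Cd74 and H2-Eb1 in none.

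From precursor B cells to B cells, edgeR called 7 of the 10 genes higher, where 5.14% of all genes were called higher. The log2 differences were 6.89 ± 1.20 for H2-Eb1, 6.53 ± 0.72 for Cd74, 4.98 ± 0.80 for H2-Aa, 3.86 ± 1.02 for H2-DMb2, 2.40 ± 0.71 for H2-DMb1, 1.91 ± 0.54 for H2-Ab1 and 1.82 ± 0.40 for H2-DMa. H2-Ob (0.62 ± 0.43, adjusted p 0.42), H2-Oa (0.20 ± 0.62, adjusted p 0.89) and Ciita (2.64 ± 1.18, adjusted p 0.16) did not pass. The count was 4 without Ctrl replicate 1 and 4 without Ctrl replicate 2, and H2-DMb2 and H2-DMb1 were also lost without HLU replicate 1. Against neutrophils, precursor B cells were higher in H2-Ob by 6.03 ± 0.49, in H2-Oa by 3.11 ± 0.70, in H2-Ab1 by 2.59 ± 0.53 and in H2-DMa by 1.42 ± 0.45, where 18.9% of all genes were called higher. Cd74 (-0.36 ± 0.63) and H2-Aa (0.41 ± 0.88) were not called, and H2-DMa lost its call without Ctrl replicate 2 or HLU replicate 1.

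The shares of cells with a UMI differed between libraries. H2-Ob UMIs were found in 6.90% of the 29 precursor B cells of Ctrl replicate 1. The shares were 53.6% and 46.5% in Ctrl replicate 2 and HLU replicate 1, against 0.28% and 0.84% of their neutrophils. Median depths were 5763 and 3753 UMIs in the precursor B cells of the latter libraries and 3801.5 and 3635 UMIs in the neutrophils. Of the 57 precursor B cells with an H2-Ob UMI, 7 (12.3%) also held Cd74, against 446 of 462 such cells (96.5%) in the B cell gate. Most precursor B cells also passed another gate, and the precursor and B cell lists share Cd79a and Cd79b.

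Plasma cells, the antibody-secreting end of the B lineage, numbered 15 in all. Of these, 2 passed no other gate. Without putative doublets no plasma cell was left in HLU replicate 2. Their share of kept cells then fell from 0.0902% to 0.0275% in HLU replicate 1 and from 0.0393% to 0.0279% in Ctrl replicate 2, but not in Ctrl replicate 1. The 15 cells held 672 UMIs of Cd74, 60 of H2-Ab1 and 28 of H2-Eb1 but 8 of H2-Aa and 0 of Ciita and H2-Oa. Cd74 stood at 1398, 1008, 2671 and 1470 CPM there, on 2 to 7 cells a library, and no test was made.

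The plasmacytoid dendritic cell gate (11 to 33 cells a library) varied more between libraries than the B cell gate in the classical chains. H2-Aa stood at 487, 530, 156 and 1339 CPM and Cd74 at 2821, 2412, 1599 and 5338 CPM in Ctrl replicates 1 and 2 and HLU replicates 1 and 2. HLU replicate 2 was the highest and HLU replicate 1 the lowest, with the Ctrl libraries between them. The Ctrl levels rested on single cells. Of the UMIs of H2-Aa, H2-Ab1, H2-Eb1 and Cd74 in this gate, 1 of 12 cells held 83.6% in Ctrl replicate 1. In Ctrl replicate 2, 1 of 18 cells held 51.1%. The top 2 of 33 cells held 21.9% in HLU replicate 1, and 1 of 11 held 27.9% in HLU replicate 2. Against B cells, 3 genes were called (8.74% of all genes were higher and 8.42% lower): H2-DMb1 (2.54 ± 0.34) and H2-DMa (1.39 ± 0.27) higher and H2-Ob lower (-2.69 ± 0.55). Of all genes called there, 51.0% were higher, and 68.1% with DESeq2's size factors. Without HLU replicate 2, 6 members were called, where 19.7% of all genes were called in either direction. Mature dendritic cells exceeded this gate in H2-Eb1 (3.40 ± 0.71), H2-Aa (3.35 ± 0.59), H2-Ab1 (2.48 ± 0.51) and Cd74 (2.25 ± 0.52), 4 of 10 genes against 8.72% of all genes called higher, and 7 without HLU replicate 2, where 13.8% of all genes were called in either direction. The call of Cd74 was lost without HLU replicate 1. Against monocytes all 10 genes were higher (9.41% of all genes). Higher genes made up 39.2% of those calls, and 56.1% with DESeq2's size factors. H2-Ob lost its call without Ctrl replicate 2, and H2-DMb2 without HLU replicate 2. When only the cells that passed a single gate were used, this gate rested on 13 cells of 1 library, and H2-DMb2 and H2-Ob turned from 3.89 to -5.32 and from 3.26 to -6.77 against monocytes.

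Between skeletal cells and neutrophils, H2-DMb1 was called higher and H2-Oa, Cd74 and H2-DMa lower. These calls do not set the members apart, since 70.7% of all genes were called between these gates. H2-Ab1 stood at 35.4, 47.3, 12.6 and 9.99 CPM in the skeletal cells of Ctrl replicates 1 and 2 and HLU replicates 1 and 2, against 10.3 to 16.0 CPM in neutrophils. Per UMI of H2-Aa, skeletal cells held 14.2, 4.74, 3.33 and 5 UMIs of H2-Ab1, B cells 0.753 to 1.43 and mature dendritic cells 0.386 to 0.888. The skeletal values of the HLU libraries rested on 3 UMIs of H2-Aa each. Against neutrophils, H2-DMb1 was higher in skeletal cells by 1.10 ± 0.28 (adjusted p 0.00099), and H2-Oa (-2.13 ± 0.59), Cd74 (-1.47 ± 0.50) and H2-DMa (-0.84 ± 0.29) were lower. Of all genes, 35.4% were called higher and 35.3% lower between these gates. H2-Ab1 was not called (0.51 ± 0.46, adjusted p 0.33). Of the 4 members called, H2-DMa and Cd74 lost their calls without Ctrl replicate 1, and Cd74 also without HLU replicate 1.

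The sum of H2-Aa, H2-Ab1, H2-Eb1 and Cd74 per cell, scaled to 10000 UMIs, showed how evenly a gate carried class II. Its median was 149 in mature dendritic cells, 61.1 in B cells, 10.6 in plasmacytoid dendritic cells, 0.647 in monocytes and 0 in neutrophils. A value over 50 was found in 100 of 132 mature dendritic cells (75.8%), 755 of 1330 B cells (56.8%), 32 of 2059 monocytes (1.55%) and 24 of 15568 neutrophils (0.154%). In contrast, 39.5% of monocytes and 88.0% of neutrophils held no UMI of the 4 genes. Median depth in monocytes was 10507 to 15089 UMIs a library, above the 3635 to 6261 of neutrophils.

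**Figure D4:**
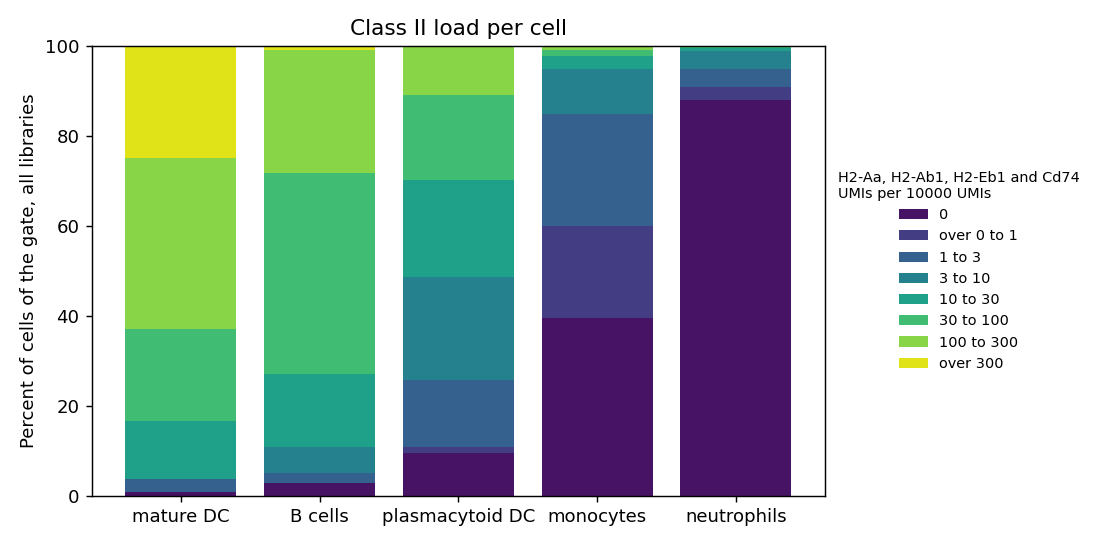
Bars divide the cells of each marker gate, all libraries together, by the sum of H2-Aa, H2-Ab1, H2-Eb1 and Cd74 UMIs per 10000 UMIs of the cell. Mature dendritic and B cells lie mostly above 30, and 39.5% of monocytes and 88.0% of neutrophils hold none.

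The monocyte level rested on few cells. The 5% of monocytes with the highest values held 70.5% of the UMIs of the 4 genes in that gate, against 17.1% for the same share of B cells. The 32 monocytes over 50 held 71.1%, 47.5%, 57.3% and 37.8% of these UMIs in Ctrl replicates 1 and 2 and HLU replicates 1 and 2, on 6, 5, 10 and 11 cells. Without them, the sum of the 4 genes stood at 226, 321, 256 and 114 CPM in place of 758, 600, 585 and 183. These cells were led by Ly6a, Ifitm1, Il4i1, Pf4 and Ctsk, 13 of them passed another gate and 3 were putative doublets. Next in rank were Ly6d, Cd7, Ifi27l2a, Bcl11a, Klrd1, Tmem176a and Apoe. Ly6d, Cd7 and Klrd1 were also among the leading genes of the plasmacytoid dendritic cell gate, and Il4i1 of the mature dendritic cell gate. Ifi27l2a is on the monocyte list. Whether these cells were monocytes was not tested.

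Macrophages were few (4, 8 and 2 cells in Ctrl replicates 1 and 2 and HLU replicate 1, and 53 in HLU replicate 2), so they entered no test. They held 0 UMIs of Ciita, and 55.2% of them held none of the 4 genes. In HLU replicate 2, Cd74 stood at 372 CPM and H2-Ab1 at 195 CPM in macrophages, above the 94.2 and 65.3 CPM of its monocytes. However, 3 of these 53 macrophages held 74.2% of their 260 UMIs of the 4 genes. The median of the 4 genes per 10000 UMIs was 0 in these macrophages and 0.55 in the monocytes of that library. Class II in macrophages could therefore not be compared between the conditions.

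Across the 30 sums of a gate in a library, the members differed in how closely they followed the mean log2 CPM of H2-Aa, H2-Ab1 and Cd74. Outside these 3 genes, Pearson's r was 0.96 for H2-Eb1, 0.94 for Ciita, 0.85 for H2-DMb2, 0.83 for H2-DMa, 0.79 for H2-DMb1, 0.70 for H2-Oa and 0.60 for H2-Ob. Among pairs of members, r was lowest for H2-DMb1 with H2-Ob (0.22) and highest for H2-Eb1 with Cd74 (0.97). The sums share their 4 libraries and differ widely in depth, so these values are a description.

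A filter on low CPM over these sums left 10755 genes. Of them, the 10 non-members outside the marker lists with the highest r were Syngr2 (0.93), Ly86 (0.89), Kynu (0.89), Cd40 (0.88), Fgd2 (0.87), Pkib (0.86), Pcyt2 (0.86), Rftn1 (0.85), Psme2 (0.85) and Prcp (0.85). Cd40 is the receptor through which T cells activate B cells and dendritic cells. Syngr2 stood at a mean of 1063 CPM in mature dendritic cells, 249 in B cells, 117 in monocytes and 42.9 in neutrophils.

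Unloading was compared first by the share of cells in each gate. B cells were 1.5% and 3.0% of the kept cells in Ctrl and 7.32% and 4.46% in HLU, a difference of 3.64 percentage points. Monocytes were 2.45% and 3.60% against 5.17% and 12.7%, a difference of 5.90 points. When 1 library was left out, the difference ranged from 2.21 to 5.07 points for B cells and from 2.14 (without HLU replicate 2) to 9.66 (without HLU replicate 1) for monocytes. In both gates the HLU libraries were above the Ctrl libraries, with an exact permutation p of 0.333, the smallest this design allows. Mature dendritic cells differed by 0.272 points (exact p 0.667, 0.0582 to 0.487 with 1 library left out), and plasmacytoid dendritic cells by 0.0711 and macrophages by 0.213 points (exact p 1 each). These shares depend on the skeletal cells that filled the Ctrl libraries. With skeletal cells taken out of the denominator, B cells were 3.33% and 5.24% in Ctrl and 7.38% and 4.52% in HLU. Monocytes were 5.45% and 6.29% in Ctrl and 5.21% and 12.8% in HLU, so that HLU replicate 1 lay below both Ctrl libraries. In both gates the groups then overlapped.

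In the B cell gate, all 10 genes had a fitted change from Ctrl to HLU below 0, and none passed the test. Leaving out 1 library turned the sign of 5 of them (H2-Ab1, H2-DMa, H2-DMb1, H2-Ob and Ciita). H2-Eb1 stood at 655 and 547 CPM in Ctrl and 347 and 395 CPM in HLU, a log2 fold change of -0.80 ± 0.26 (edgeR, unadjusted p 0.014, adjusted p 0.44). H2-Aa, at 813 and 618 against 475 and 473 CPM, changed by -0.70 ± 0.25 (unadjusted p 0.025, adjusted p 0.61). Cd74, at 5282 and 5018 against 4572 and 3943 CPM, changed by -0.39 ± 0.18 (adjusted p 0.85).

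Both HLU libraries lay below both Ctrl libraries for these 3 genes and for H2-DMb2 and H2-Oa, 5 of 10 genes, where 18.6% of all 8527 genes tested did so. H2-Ab1 overlapped, at 698 and 465 against 374 and 677 CPM (-0.24 ± 0.36). Ciita, at 14.9 and 27.5 against 21.7 and 25.1 CPM, changed by -0.08 ± 0.40. The median over the 10 genes was -0.32, and over all genes tested 0.01. Called were 0 of the 10 members against 1.9% of all genes. At an unadjusted p under 0.05 there were 2 members and 538 of all genes, and DESeq2 called 0 members and 2.09% of all genes. Transcripts of 12 skeletal markers moved with the condition in this gate, with a summed level of 3120 and 6363 CPM in Ctrl and 20.2 and 19.3 CPM in HLU. Their part in these differences was not tested.

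The share of B cells with an H2-Aa UMI, after each cell was thinned to 1000 UMIs, was 38.4% and 41.9% in Ctrl and 32.5% and 33.4% in HLU (exact permutation p 0.333). Unthinned, it was 59.1% and 72.1% against 56.2% and 50.1%. The thinned share in neutrophils was 0.302% to 0.76%. For Cd74 the thinned shares in B cells were 83.4% and 90.7% against 84.4% and 94.1%, and the groups overlapped (exact p 0.667). Most cells of the gate therefore held Cd74 in both conditions.

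In monocytes, 7 of the genes had enough counts for the test, and all 7 fitted changes were below 0. H2-Aa stood at 114 and 58.3 CPM in Ctrl and at 48.1 and 12.4 CPM in HLU, a log2 fold change of -1.62 ± 0.68 (edgeR, adjusted p 0.87). H2-Eb1, at 73.0 and 37.7 against 35.5 and 10.6 CPM, changed by -1.37 ± 0.63, and H2-Ab1, at 134 and 112 against 95.3 and 65.3 CPM, by -0.69 ± 0.32. These 3 genes did not overlap between the groups, where 18.3% of all 10413 genes tested lay lower in both HLU libraries. The summed level of these genes and Cd74, at 758 and 600 against 585 and 183 CPM, did not overlap either. Without the 32 monocytes of high class II described above, it stood at 226 and 321 CPM in Ctrl. In HLU it stood at 256 and 114 CPM, and the groups overlapped. Those 32 cells were picked by their own sum of these same genes, so the overlap without them is no separate test of the change. Cd74 stood at 436 and 392 against 406 and 94.2 CPM, so that only HLU replicate 2 was low (-0.81 ± 0.64). With 1 library left out, the fold change ranged from -2.81 to -0.92 for H2-Aa, -2.40 to -0.71 for H2-Eb1, -0.94 to -0.45 for H2-Ab1 and -2.17 to -0.12 for Cd74.

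None of the 7 was called, and 0% of all genes were. At an unadjusted p under 0.05 there were 428 genes but 0 of the 7, and DESeq2 called 115 genes and 0 of the 7. The count of members called rested on single libraries: it was 6 without HLU replicate 1, where 35.6% of all genes were called, and 1 (H2-Aa, adjusted p 0.018) without HLU replicate 2, where 3.18% were. With no filter on low counts, H2-Aa (adjusted p 0.0038 in edgeR) and H2-Eb1 (adjusted p 0.033) were called, where 2.17% of all genes were. Thinned to 1000 UMIs, 4.22% and 3.10% of Ctrl and 2.07% and 0.916% of HLU monocytes held H2-Aa (exact permutation p 0.333), against 0.302% to 0.76% of neutrophils. The summed skeletal markers stood at 1721 and 2031 CPM in the Ctrl monocytes and at 32.1 and 87.5 CPM in the HLU monocytes. The mature dendritic markers (10 genes, 8 to 10 of them detected) stood at 85.5 and 91.7 against 82.1 and 64.2 CPM, and the precursor B markers (12 genes) at 31.7 and 51.4 against 23.3 and 11.5 CPM, lower in both HLU libraries as well. The groups overlapped for the B cell markers (99.7 and 118 against 113 and 53.7 CPM). They also overlapped for the plasmacytoid dendritic markers (159 and 284 against 256 and 238 CPM) and the neutrophil markers (1691 and 2302 against 2090 and 1301 CPM). The part of these markers in the class II values was not tested. The change in monocytes did not pass a test against that in B cells: in the interaction fit 0 of the 10 genes were called (0.0567% of all genes), with H2-Aa at -1.12 ± 0.61 (adjusted p 1). Without HLU replicate 1 that count was 3 (H2-Aa, H2-Eb1 and H2-DMa), where 3.48% of all genes were called.

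In mature dendritic cells the comparison was possible only when libraries with 5 or more cells were admitted, a choice made after the data were seen. Of the 8 genes tested, Cd74, H2-DMb1 and H2-Eb1 lay lower in both HLU libraries on the TMM scale (edgeR's scaling of library totals). On that scale 18.1% of all genes did so. In the unscaled CPM given above, the H2-DMb1 values of the groups overlapped. H2-Eb1 changed by -0.90 ± 0.43, H2-Aa by -0.82 ± 0.54 and Cd74 by -0.69 ± 0.42, each with an adjusted p of 0.86 in edgeR, while Ciita stood at 0.25 ± 0.45 and H2-DMa at -0.02 ± 0.51. None was called, nor was any of the 3510 genes tested (0%); 191 of all genes and 0 of the 8 had an unadjusted p under 0.05, and DESeq2 was not run here. HLU replicate 2 was the lowest library for each of the classical chains, Cd74 and the DM genes. The skeletal markers stood at 436 and 4009 CPM against 16.8 and 31.0 CPM in this gate, and their part was not tested.

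In the plasmacytoid dendritic cell gate, 0 of 7 genes tested were called, against 0.256% of all genes, and none of the 7 was free of overlap between the groups (15% of all genes lay lower and 16% higher in both HLU libraries). H2-Eb1 stood at 424, 221, 37.2 and 1590 CPM in Ctrl replicates 1 and 2 and HLU replicates 1 and 2, with the Ctrl values between the 2 HLU values. Without HLU replicate 1, Ciita (2.43) and H2-Eb1 (2.22) were called, where 7.5% of all genes were. No member had an unadjusted p under 0.05 with all libraries, where 72 of all 2343 genes tested did. DESeq2 called 0 members and 0.512% of all genes. The summed skeletal markers stood at 861 and 859 CPM in Ctrl and at 3.72 and 0 CPM in HLU in this gate, and their part was not tested.

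Of the background gates, neutrophils had 0 of 9 members called (2.2% of all genes), and skeletal cells 0 of 8 (0%). At an unadjusted p under 0.05 there were 0 of the 9 and 1 of the 8, with 1523 of all genes in neutrophils and 1982 in skeletal cells. DESeq2 was not run in these gates. In neutrophils, the same 3 classical chain genes as in monocytes lay lower in both HLU libraries, as 22.4% of all genes did. H2-Aa stood at 12.2 and 7.49 against 6.35 and 5.62 CPM (-0.67 ± 0.35), H2-Eb1 changed by -0.50 ± 0.37 and H2-Ab1 by -0.42 ± 0.25. H2-Oa lay higher in both (23.2% of all genes). H2-Ab1 in skeletal cells had the smallest unadjusted p of any member in any gate in this comparison (0.00045, log2 fold change -2.13 ± 0.30, adjusted p 0.2 in edgeR), on 59 and 120 HLU cells. Both its HLU libraries lay below both Ctrl libraries, as 28% of all genes did there. The HLU skeletal cells held 10 and 15 UMIs of H2-Ab1, against 1347 and 1577 in Ctrl.

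**Figure D5:**
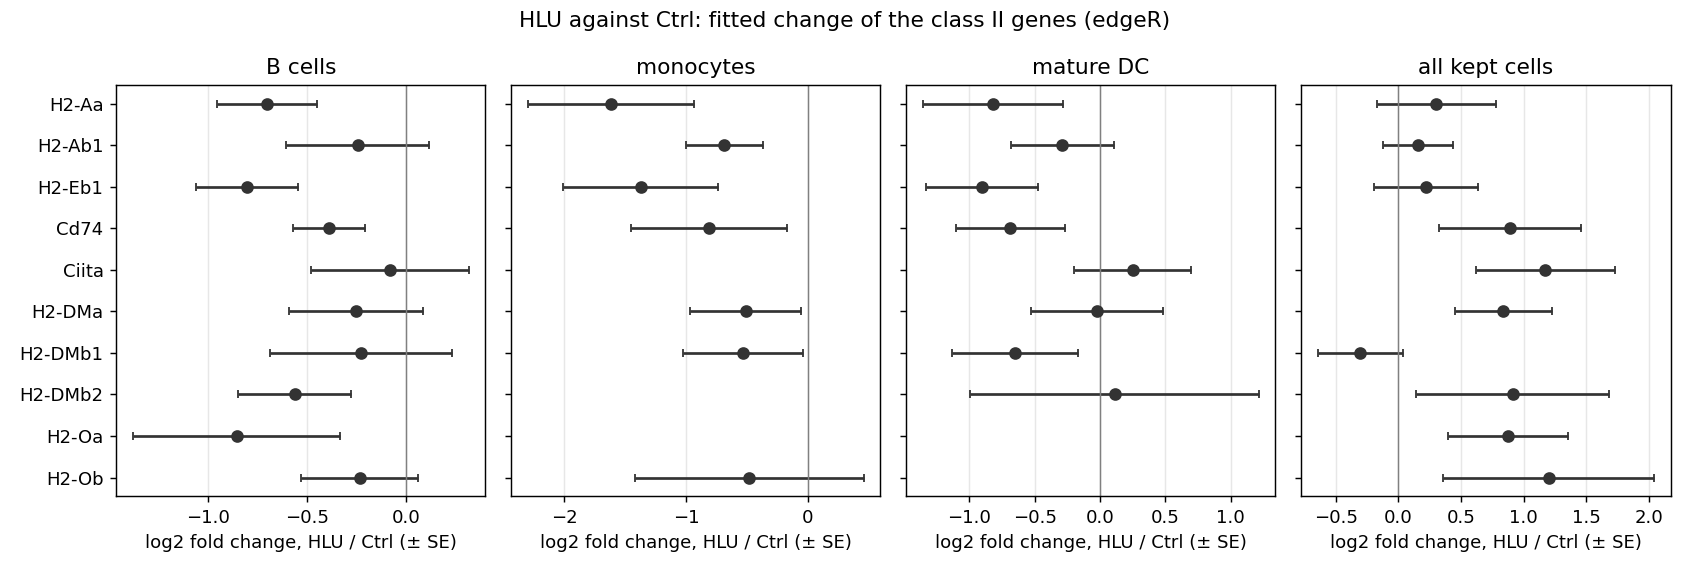
Points give the log2 fold change from Ctrl to HLU of each class II gene in 3 marker gates and in all kept cells, with bars of 1 SE from edgeR. Genes without a point had too few counts in that gate. The points of the B cell and monocyte panels lie below 0, 9 of 10 of the whole digest lie above it, and none passed an adjusted p of 0.05.

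Summed over all kept cells, the direction was the other way round: 9 of the 10 genes had a fitted change above 0. In such a sum, a change in the number of cells of a type and a change in RNA per cell cannot be told apart. B cell and monocyte shares were higher in HLU. So were those of neutrophils, 26.4% and 37.2% of the kept cells in Ctrl against 70.3% and 56.3% in HLU. Cd74 stood at 113 and 235 CPM in Ctrl and at 457 and 170 CPM in HLU (0.89 ± 0.57, adjusted p 0.31 in edgeR). Ciita stood at 0.78 and 1.92 against 3.68 and 2.20 CPM (1.17 ± 0.55, adjusted p 0.18), and H2-Ob at 1.58 and 4.54 against 11.5 and 2.36 CPM (1.20 ± 0.84).

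Ciita, H2-DMa and H2-Oa lay higher in both HLU libraries, 3 of 10, where 31.7% of all genes did. H2-DMb1 was the 1 gene below 0 (-0.30 ± 0.34). None of the 10 was called, against 23.2% of all genes. At an unadjusted p under 0.05 there were 0 of the 10 and 5875 of all 15385 genes tested, and DESeq2 called 0 members and 30.4% of all genes. Without HLU replicate 2, H2-DMa, H2-Ob and Cd74 were called, where 37.8% of all genes were. The median of the 10 was 0.86, and of all genes tested 0.04.

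Other genes of antigen presentation were followed through lists of 63 symbols, 58 of them in the matrices. They covered peptide loading and lysosomal processing, the class II transcription complex, other class II chain genes, surface turnover and costimulation, MHC class I presentation and the interferon gamma response. In B cells 0 of 52 tested genes were called. The median of all genes tested was 0.01. The list medians were -0.12 for class I presentation, 0.30 for the interferon gamma response, -0.21 for loading and processing, 0.01 for the transcription complex and -0.09 for turnover and costimulation. H2-Eb2, a further class II beta chain gene, stood at -0.66 ± 0.48.

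In B cells, the highest and lowest genes of each list included Ctsl, a lysosomal protease, at -1.64 ± 0.44 (adjusted p 0.24) and March1, a ubiquitin ligase that removes class II from the surface, at 1.06 ± 0.45 (adjusted p 0.78). Cd1d1 stood at 0.27, Prdm1, a repressor of Ciita, at 0.53 and Rfxank, a subunit of the factor that binds the X box, at -0.31. Cd274 stood at -0.71, Erap1 at 0.91, H2-D1 at -0.49, Gbp5 at 0.69 and Socs1 at -0.31. March1 read 11 and 23.0 CPM in Ctrl and 29.7 and 48.5 CPM in HLU on the TMM scale (edgeR's scaling of library totals). Its groups did not overlap, but it did not pass the test.

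In monocytes 0 of 54 list genes were called. The highest fitted value of each list was that of Cxcl10 (1.56), March1 (0.82 ± 0.31, adjusted p 0.87), Calr (0.49), Ctsd (0.33) and Rfx5 (0.29). The lowest of each list were those of Cd83, which stabilises class II at the surface (-1.74 ± 0.75, adjusted p 0.87), Igtp (-0.88), Lgmn (-0.67), Tap1 (-0.55) and Rfxap (-0.33). The list medians were -0.10 for class I presentation, 0.23 for the interferon gamma response and -0.22 for turnover and costimulation. In the plasmacytoid dendritic cells 0 of 26 were called. At an unadjusted p under 0.05 there were 3 list genes in B cells, 1 in monocytes and 1 in plasmacytoid dendritic cells, beside 538, 428 and 72 of all genes. DESeq2 called 0 list genes in each, beside 2.09%, 1.1% and 0.512% of all genes. However, without HLU replicate 1 they were 3 in B cells, 20 in monocytes and 4 in plasmacytoid dendritic cells, where 5.15%, 35.6% and 7.5% of all genes were called. Without Ctrl replicate 1 the count in B cells was 1, where 1.72% of all genes were called.

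In all kept cells 6 of 57 list genes were called, against 23.2% of all genes. Ctsl fell from 394 and 435 to 186 and 148 CPM (TMM scale, log2 fold change -1.31 ± 0.28, adjusted p 0.030). March1 rose from 2.52 and 4.37 to 11.7 and 38.5 CPM (2.86 ± 0.66, adjusted p 0.035), and Spi1, the myeloid and B cell factor PU.1, from 137 and 177 to 395 and 511 CPM (1.53 ± 0.31, adjusted p 0.025). Nlrc5, the class I counterpart of Ciita (1.42 ± 0.35), and Ifngr2 (1.23 ± 0.32) also rose, with adjusted p of 0.043 and 0.048. These sums carry the change in cell shares given above, that of neutrophils included.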

How the data were processed

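The single-cell RNA-seq libraries were made by the authors with Cell Ranger 6.0.0 and the mm10 (3.0.0) reference, and the deposited values are raw UMI counts per gene and barcode. Seurat 4.1.0 is named among the tools in the submitters' processing notes. Each library holds 10000 to 10003 deposited barcodes, of which those with 1000 to 40000 UMIs and at most 10% mitochondrial UMIs were kept. A cell that passed several of the 14 gates went to the gate with the highest share of its markers detected. Putative doublets (Scrublet in scanpy 1.11.5) numbered 431 to 720 a library. They stayed in the main values and were left out in an alternative.

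UMIs were summed per gate and library with at least 10 cells. HLU was compared with Ctrl per gate, and gates with each other, by edgeR 4.0.16 (quasi-likelihood test, TMM scaling, genes filtered on low counts, Benjamini-Hochberg over all genes tested). DESeq2 1.42.0 was an alternative. Counts of genes whose groups did not overlap were taken on the TMM scale. Shares were compared by 2-sided exact permutation tests, and for shares of cells with a UMI each cell was thinned to 1000 UMIs. Sums were made in Python 3.11.15 and R 4.3.3, and the fits were tested on simulated data. Limits at 0 UMIs (3 counts) cover counting error only.

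Samples were grouped by their titles, and replicate numbers are those of the labels. The p-values for HLU against Ctrl measure the spread between 2 libraries a group. Those between gates come from 1 fit over sums of both conditions, and measure the spread left between sums after gate and library. The interaction fit also held library as a block. Named were all 10 members, the list genes that passed the test, the highest and lowest list genes in B cells and monocytes, and the 10 genes most like the mean of H2-Aa, H2-Ab1 and Cd74. The members, gates and lists were chosen with earlier results of these data known. 1 list gene that passed the test is not reported here.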

Additional observations from a re-analysis of the deposited data

How the results depend on the processing

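Of 455 values under alternative settings, over 49 results, 395 kept their direction and their side of the threshold or stayed near the main count. With all 4 libraries and with any 1 left out, 0 members were called in B cells. Counts of members called, over fits that left out 1 library, ranged from 0 to 6 in monocytes, 0 to 2 in plasmacytoid dendritic cells, 0 to 3 in all kept cells, 0 to 3 in the interaction, 3 to 7 for mature against plasmacytoid dendritic cells, 3 to 6 for plasmacytoid dendritic against B cells, 4 to 8 for B against precursor B cells, 2 to 6 for skeletal cells and 3 to 3 for T and NK cells against neutrophils. Counts of list genes ranged from 0 to 3 in B cells, 0 to 20 in monocytes and 0 to 4 in plasmacytoid dendritic cells. Without the filter on low counts, 2 members and 1 list gene were called in monocytes (2.17% of all genes) and 1 list gene in B cells (2.95%). Between gates, that setting called 5 members for plasmacytoid dendritic against B cells (7.88% of all genes) and 7 for skeletal cells against neutrophils (48.4%). Asking for 1 more marker per gate gave 5 members between plasmacytoid dendritic and B cells, where 14.6% of all genes were called. With cells that passed 1 gate, added after the data were seen, that count was 1, plasmacytoid dendritic cells against monocytes gave 2, T and NK cells against neutrophils gave 3, and comparisons with precursor B cells could not be fitted, as no library held 10 such cells. The cause of these changes was not tested.

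Leaving out 1 library also turned directions. The log2 fold change ranged in B cells from -0.76 to 0.14 (H2-Ab1), -0.62 to 0.10 (H2-DMa), -0.58 to 0.54 (H2-DMb1), -0.55 to 0.0097 (H2-Ob) and -0.38 to 0.54 (Ciita). In monocytes it ranged from -1.28 to 0.012 (H2-DMa) and -1.35 to 0.0080 (H2-DMb1), and in all kept cells from -0.28 to 0.75 (H2-Aa) and -0.16 to 2.14 (H2-Ob). Ciita in B cells stood at 0.026 with cells that passed 1 gate. The difference in the share of plasmacytoid dendritic cells ranged from -0.0836 to 0.226 points and was -0.114 points with skeletal cells out of the denominator, and that of macrophages ranged from -0.0539 to 0.479. For cells with a Cd74 UMI it ranged from -2.62 to 7.12 points in B cells and from -6.06 to 0.913 in monocytes, where it was 3.45 unthinned.

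Libraries with the same replicate number did not deviate together (correlations of 0.04 in B cells, 0.09 in monocytes, 0.05 in plasmacytoid dendritic cells and -0.05 in all kept cells). A fit with the replicate block called 0 members in each of the 4, beside 1.83%, 0.538%, 0% and 22.3% of all genes in the same order. It turned Ciita in B cells to 0.016.

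Between gates, 71 member differences were called, in comparisons that each called 12.3% to 70.7% of all genes. Of their 628 values under alternatives, 2 turned sign and 57 lost the call. DESeq2's size factors moved the median of all genes by 0.05 to 0.24 on the log2 scale.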
